A study of Mus musculus with 12 samples.

Results

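The keratins Krt6a, Krt6b, Krt16, Krt17 and Krt78 were followed through the translated messenger RNA of cultured mouse keratinocytes, with and without wounding and in 2 fractions of the cell. These 5 genes were taken by name from the 54532 genes listed, among 54 genes named as keratins. They were chosen by their measured wounding changes and by the change of their cortical-to-total ratio in these same libraries, so those values are given as a description with no test. All cells had the genotype labelled WT DP-BirA(1-584): they carried the amino-terminal residues 1 to 584 of desmoplakin, the protein that ties keratin filaments to the desmosome, fused to the biotin ligase BirA. All cultures were grown to confluence, then given calcium, which sets off differentiation, and 2 µg/mL doxycycline, which switched the fusion protein on. The label gives the calcium as 1.2 µM, whereas keratinocytes are usually differentiated at millimolar calcium, so the unit may be a slip. They were wounded or left intact and then labelled with biotin for 16 h.

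The translating part of each lysate was taken from sucrose gradients and put on neutravidin beads, which catch biotinylated protein. The caught RNA is the cortical fraction, and the RNA left behind is what the submitters call the total fraction. Each fraction of unwounded and of wounded cells had 3 libraries, which gave 4 groups. Whether the keratinocytes were a clone or a pool, their strain and age, and the size of the wound are not given in the sources used here. A whole culture was harvested, so fewer cells expressing a gene and less RNA per cell cannot be told apart. The titles call the libraries biological replicates and do not say what separated them, so the p-values measure the spread between these libraries.

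Keratins are the intermediate filament proteins of epithelial cells, and every filament pairs a type I with a type II chain. Basal keratinocytes build theirs mainly from Krt14 (type I) and Krt5 (type II), and differentiating cells of intact skin switch to Krt10 and Krt1. Krt6a and Krt6b (type II), with Krt16 and Krt17 (type I), are kept low in intact epidermis between the hair follicles, rise quickly at a wound edge, and are widely used as marks of activated, stressed or diseased skin. Krt78 is a type II keratin with a long tail, known from differentiated layers of stratified epithelia, and is not one of the classical stress keratins.

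The type II members lie together on chromosome 15 and the type I members on chromosome 11, all on the minus strand of GRCm38. Krt6b (ENSMUSG00000023041) is at chr15:101676023-101680287, Krt6a (ENSMUSG00000058354) at chr15:101689910-101694307 and Krt78 (ENSMUSG00000050463) at chr15:101946001-101954287, each with 9 exons. Krt16 (ENSMUSG00000053797) is at chr11:100246091-100248902 and Krt17 (ENSMUSG00000035557) at chr11:100256217-100261029, each with 8 exons. The coding sequence measured 1659 bases in Krt6a, 1662 in Krt6b, 1407 in Krt16, 1299 in Krt17 and 3204 in Krt78.

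How far the members can be told apart in short reads depends on their sequence. The coding sequences of Krt6a and Krt6b were identical at 97.8% of aligned bases, those of Krt16 and Krt17 at 77.5%. For each pair, the 75-base single-exon stretch with the most differences is shown 5′ to 3′ from the GENCODE M21 transcripts on GRCm38, with the bases that differ from the partner in capitals. The Krt6 stretches lie in exon 4 (chr15:101692484-101692558 and chr15:101678303-101678377) and differ at 12 positions, and the type I stretches lie in exon 5 (chr11:100247141-100247215 and chr11:100257782-100257856) and differ at 28.
Krt6a: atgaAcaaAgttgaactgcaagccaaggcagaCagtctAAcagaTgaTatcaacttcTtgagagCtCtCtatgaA
Krt6b: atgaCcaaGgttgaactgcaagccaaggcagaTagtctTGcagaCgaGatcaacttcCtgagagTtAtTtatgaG
Krt16: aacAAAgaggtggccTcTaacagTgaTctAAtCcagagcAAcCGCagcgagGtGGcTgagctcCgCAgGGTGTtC
Krt17: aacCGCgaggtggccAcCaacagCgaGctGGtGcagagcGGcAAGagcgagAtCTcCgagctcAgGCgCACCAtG

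Of the 100-base windows along the transcript, 47.5% of those of Krt6a and 30.6% of those of Krt6b also occurred exactly in a transcript of another gene, most often in each other's. The share was 24.3% for Krt16, mainly with the pseudogene Gm11597, which had 0 to 17 counts per library (310 windows), and otherwise with Krt14 (46 windows), which had 65037 to 251572 counts against 2751 to 13851 for Krt16. Krt6a shared 50 windows with Krt5, which had 56828 to 180483 counts. It was 0 of 1452 windows for Krt17 and 0 of 3338 for Krt78. The read length and the rule for reads that match several genes are not given in the sources used here, so the split between Krt6a and Krt6b, and the counts of Krt16 and Krt6a beside these abundant keratins, carry an added uncertainty. Krt6a also overlaps the antisense gene Gm49428, which had 0 to 9 counts, against 19149 to 75018 for Krt6a.

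A promoter of 300 bases, 250 before to 50 after the start, was found in the RefSeq table (GRCm38.p6) for 1 of the 5 members, Krt78. Its upstream 250 bases are shown because this gene had the lowest level of the members and the widest range between groups. They lie at chr15:101954288-101954537 on the minus strand, and the capitals mark matches to the motifs searched.
Krt78: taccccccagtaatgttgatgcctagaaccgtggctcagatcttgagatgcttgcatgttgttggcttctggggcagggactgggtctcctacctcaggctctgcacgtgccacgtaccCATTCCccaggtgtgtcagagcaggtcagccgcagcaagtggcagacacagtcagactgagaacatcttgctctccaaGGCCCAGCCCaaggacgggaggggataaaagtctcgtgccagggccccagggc

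Motifs of 7 kinds were searched on both strands of the 300 bases. The TEAD motif GGAATG had 1 match, on the opposite strand, starting at position -131 from the start site, and 14.7% of the 32851 promoters in the table hold it. The NF-kB motif (GGG, any 5 bases, then CC) had 1 match, also on the opposite strand, so that the strand shown carries the reverse complement, starting at position -53, and 50.8% of promoters hold it. The 2 matches do not overlap. The TATA box was searched only as the exact letters TATAAA, which were not in this window, and 13.6% of promoters hold them. Variants of these letters were not searched, so a TATA-like stretch is not excluded. The AP-1 motif TGANTCA was not there either (7.81% of promoters). The CCAAT box, spelled as its name, was not found (37.4% of promoters), nor was the GC box GGGCGG (35.7%). The C/EBP motif TTGCNNAA was not found (10.8%). A match describes the letters and does not show a site in use.

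The libraries held 8980013 to 23457548 counts in genes, and 13571 genes had enough counts to be tested, all 5 members among them. All 10 markers of keratinocytes had enough counts to be tested. The summed level of 10 fibroblast markers was 0.965 to 6.47 CPM (counts scaled to a common library size), that of 8 melanocyte markers 2.31 to 10.4 and that of 6 endothelial markers 0.274 to 1.87. Dcn, Thy1 and Twist2 of fibroblasts, Tyr, Tyrp1 and Kit of melanocytes, and Cdh5, Emcn and Cldn5 of endothelial cells had no count in any library. Replicate 1 of the wounded total group stood apart, with 13117 genes detected against 14393 to 16867 in the other libraries. Values without it are given beside the calls of members that it changes, and for several other keratins.

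Levels are first given as FPKM, counts that the authors scaled for library size and gene length, which allow genes to be compared. The order was Krt17, Krt6a, Krt16, Krt6b, Krt78 in every library. Krt17 stood at 2199 to 4182 FPKM and Krt78 at 0.384 to 6.51 FPKM, so the group joins a gene whose level came near that of Krt14 with a gene of few counts.

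Krt6a, the more abundant of the Krt6 pair, had 683, 533 and 604 FPKM in unwounded total and 807, 849 and 806 in unwounded cortical libraries. After wounding it had 1005, 1159 and 1194 FPKM in the total and 1246, 1299.6 and 1197 in the cortical fraction. All wounded libraries were above all unwounded ones, and in each state the lowest cortical library was above the highest total library. Krt6b, its close paralog, had 5.64, 4.14 and 4.56 FPKM in unwounded total and 12.7, 9.80 and 13.4 in unwounded cortical libraries. It reached 26.3, 37.3 and 38.5 FPKM in wounded total and 30.3, 35.3 and 34.6 in wounded cortical libraries. The fractions of Krt6b were apart in unwounded cells and overlapped in wounded cells.

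Krt78 rested on few reads, 24 to 376 counts per library. Its FPKM were 0.603, 0.384 and 0.576 in unwounded total, 1.43, 1.72 and 2.10 in unwounded cortical, 6.51, 4.54 and 3.63 in wounded total and 3.32, 3.54 and 4.04 in wounded cortical libraries. The 4 groups were apart except for the wounded fractions, which overlapped. The highest value came from wounded total replicate 1, the library that stood apart.

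Krt16, the type I partner of Krt6 in activated epidermis, had 112, 104 and 102 FPKM in unwounded total and 202, 198 and 189.7 in unwounded cortical libraries. Wounded total libraries had 305, 389.8 and 417 FPKM and wounded cortical libraries 356, 338 and 379. The fractions were far apart in unwounded cells and overlapped in wounded ones. Krt17, a type I keratin that also marks hair follicles and is tied to cell growth, had 2199, 2330.4 and 2295 FPKM in unwounded total and 2668, 2765 and 2790.4 in unwounded cortical libraries. It had 2799, 3749 and 4182 FPKM in wounded total and 3587, 3458 and 3546 in wounded cortical libraries. The lowest wounded total library of Krt17, replicate 1, was level with the highest unwounded cortical library.

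**Figure D1:**
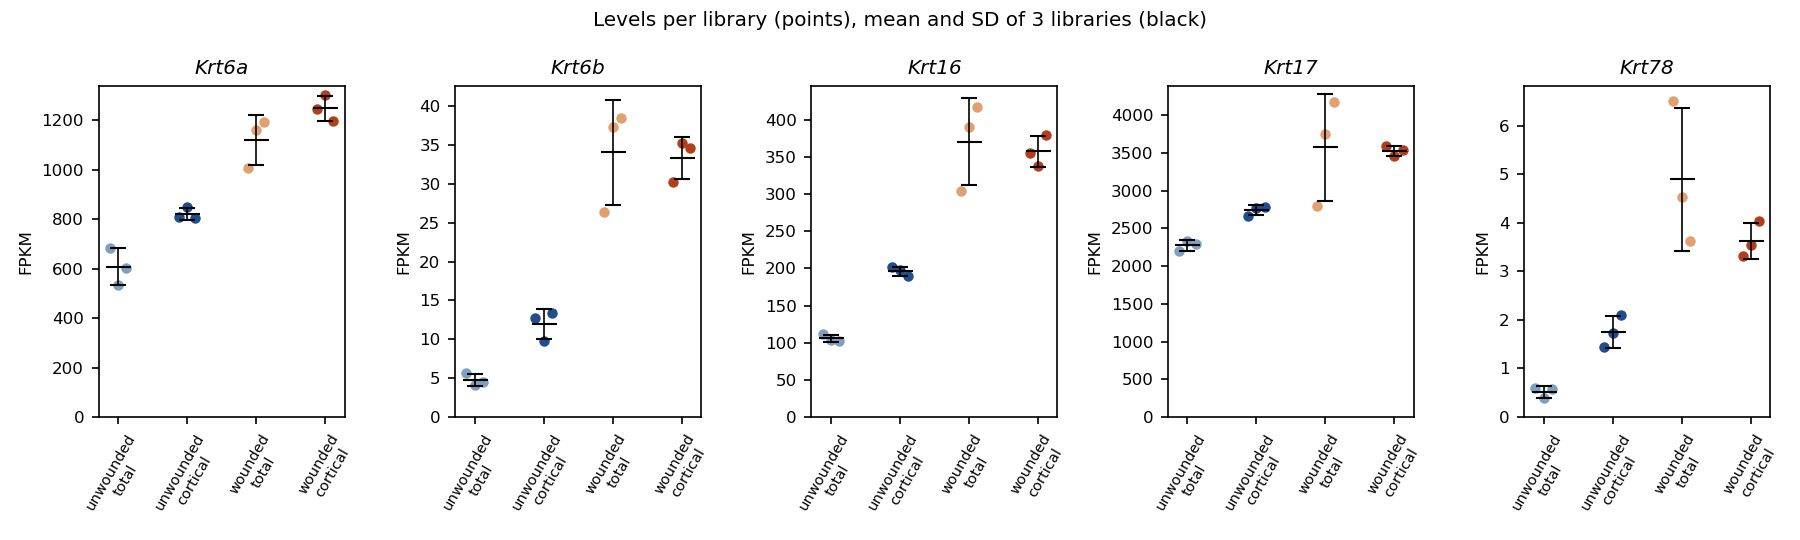
FPKM of each member (y axes from 0, a separate scale per gene) in the 4 groups (x axes). Points are libraries, and black bars give the mean and SD of 3 libraries. For Krt6b, Krt16, Krt17 and Krt78 the wounded total and wounded cortical points overlap, whereas the unwounded total points lie below all other groups.

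As means, Krt17 went from 2275 ± 68.1 FPKM (SD, n = 3) in unwounded total to 2741 ± 64.3 in unwounded cortical, 3576 ± 707 in wounded total and 3531 ± 65.8 in wounded cortical libraries. Krt6b went from 4.78 ± 0.778 to 11.97 ± 1.91, 34.1 ± 6.71 and 33.4 ± 2.73 FPKM in the same order of groups. For each member the lowest mean was in unwounded total and the next in unwounded cortical libraries, and both wounded means were above these. Neighbours in that order whose libraries overlapped were the wounded fractions of Krt6b, Krt16, Krt17 and Krt78. Those of Krt6a did not overlap and were not called different.

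The next comparison asked whether translated keratin mRNA captured near the desmoplakin fusion differed from the rest before wounding. Krt6b, Krt16, Krt78 and Krt6a were higher in the cortical fraction of unwounded cells, and Krt17 was not called. These tests used edgeR's quasi-likelihood test on counts, with Benjamini-Hochberg adjustment over all 13571 genes. The fraction differences, before and after wounding, are the terms of the change of ratio that helped choose the members. They also share libraries with the wounding values. Their p-values and the counts of members called are thus not independent of that choice, and are a description. Krt78 was 3.26-fold higher (log2 1.71, SE 0.28, adjusted p = 9.93e-04), Krt6b 2.46-fold (log2 1.30, SE 0.17, adjusted p = 1.95e-04) and Krt16 1.83-fold (log2 0.87, SE 0.12, adjusted p = 2.28e-04). The change in Krt6a was 1.33-fold (log2 0.42, SE 0.11, adjusted p = 0.0168). This call was lost without unwounded total replicate 2 (adjusted p = 0.0669) and without each unwounded cortical replicate (adjusted p from 0.0543 to 0.0808).

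Krt17 measured 1.19-fold in the cortical fraction (log2 0.25, 95% interval -0.01 to 0.50, adjusted p = 0.207), although its groups did not overlap. Without wounded total replicate 1, which only shares the estimate of spread in this contrast, its adjusted p was 0.00912. The 4 members called higher compare with 6.62% of all tested genes called higher (7.59% were called lower) in this contrast, and the 5 members whose cortical libraries all lay above the total ones with 17.1%. The members' median was 0.87 on the log2 scale and that of all tested genes 0.00.

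After wounding, no member was called between the fractions (0 of 5 at an adjusted p under 0.05 and 0 of 5 at an unadjusted p under 0.05 in edgeR, and 0 of 5 in DESeq2), against 7.62% of all tested genes called higher and 8.03% called lower. Krt6a differed by 0.18 on the log2 scale (95% interval -0.05 to 0.42, adjusted p = 0.289) and was the only member with all cortical libraries above the total ones, which held for 16.2% of all tested genes. The differences were -0.00 for Krt6b (interval -0.33 to 0.33, adjusted p = 0.994), -0.02 for Krt16 (-0.27 to 0.22, adjusted p = 0.926) and 0.01 for Krt17 (-0.25 to 0.27, adjusted p = 0.974). Krt78 stood at -0.40 (-0.93 to 0.12, adjusted p = 0.310), and at -0.15 without wounded total replicate 1.

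These log2 values are relative to most genes being level between fractions. Scaling by library size alone moved the median of all genes by 0.19 in unwounded and 0.21 in wounded cells, towards the cortical fraction. Under that scaling Krt6a (log2 0.41, adjusted p = 0.00825) and Krt17 (log2 0.25, adjusted p = 0.0223) were called higher in the wounded cortical fraction, and Krt17 was called higher in the unwounded one (log2 0.44, adjusted p = 8.13e-04). Krt6b and Krt16 then measured 0.24 and 0.21 in wounded cells. With the main scaling, the differences of Krt17 in unwounded cells (0.25) and of Krt6a in wounded cells (0.18) therefore lie near the size of this choice. That of Krt17 in wounded cells (0.01) lies below it. In unwounded cells that of Krt6a (0.42) lies above it, and those of Krt6b, Krt16 and Krt78 lie well above it.

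Wounding went with higher values of all 5 members in both fractions, which is what chose them. In the total fraction Krt78 was 9.14-fold higher (log2 3.19, SE 0.28), Krt6b 6.95-fold (2.80, SE 0.17), Krt16 3.42-fold (1.77, SE 0.12), Krt6a 1.81-fold (0.85, SE 0.11) and Krt17 1.54-fold (0.62, SE 0.12). In the cortical fraction Krt6b was 2.82-fold higher (log2 1.495, SE 0.16), Krt78 2.12-fold (1.08, SE 0.26), Krt16 1.84-fold (0.88, SE 0.12), Krt6a 1.54-fold (0.62, SE 0.11) and Krt17 1.30-fold (0.38, SE 0.12). All wounded libraries were above all unwounded ones for each member in each fraction, as for 14.5% of all tested genes in the total and 15.4% in the cortical fraction. The members past the threshold were 5 of 5 in the total fraction, where 8.39% of all genes were called higher and 7.2% lower, and 4 of 5, all but Krt17, in the cortical fraction, where 1.6% were called higher and 0.884% lower. These are edgeR counts with all libraries. In the cortical fraction DESeq2 with all libraries, and edgeR without wounded total replicate 1, put 5 of 5 past it. Without that replicate edgeR called 770 of all 14073 tested genes higher and 506 lower there, against 217 and 120 of 13571 with it. The share of all genes called by DESeq2 is not given here. Nothing is read from these counts, since the contrasts selected the genes. Krt17 had the smallest wounding changes of the members in both fractions.

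**Figure D2:**
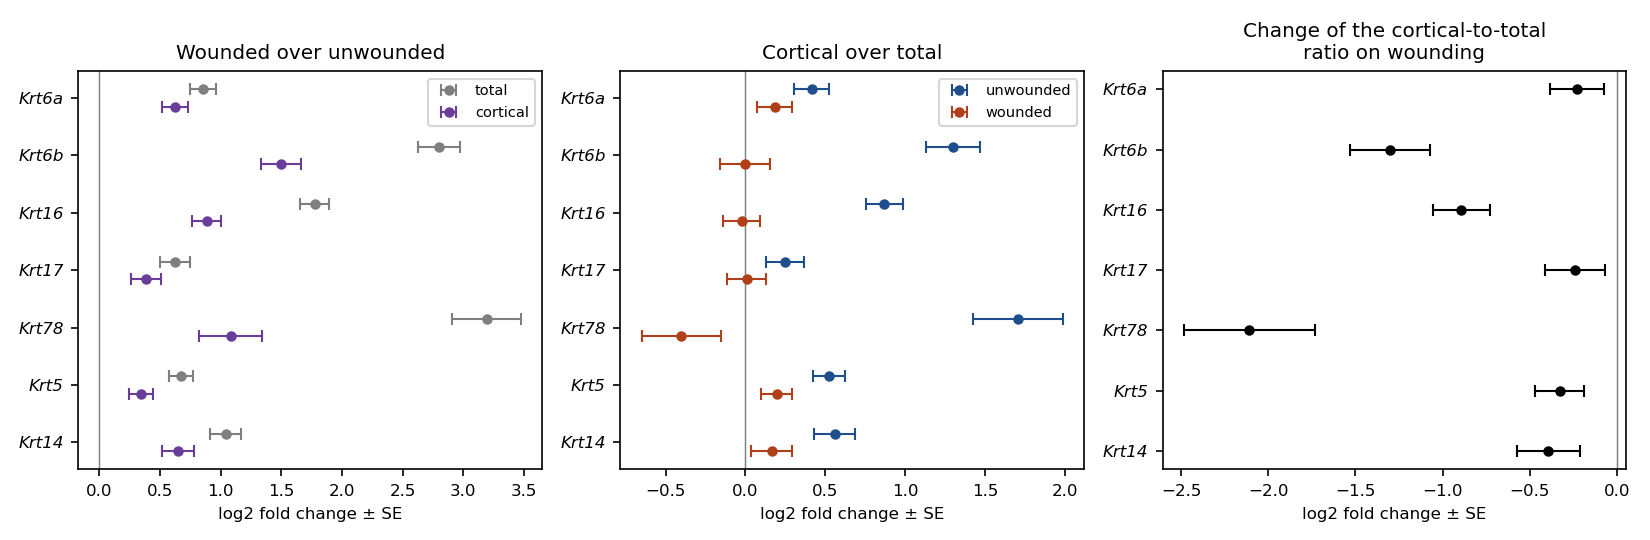
Log2 fold changes (x axes, points, with bars of 1 SE) of the members and of Krt5 and Krt14 (y axes), from the model fitted to all genes: wounding in each fraction (left), fraction in each state (middle) and the change of ratio (right). The wounding change of the total fraction (grey) lies to the right of that of the cortical fraction (purple) for each gene, and the fraction difference in wounded cells (red) lies near 0 for Krt6b, Krt16 and Krt17.

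The cortical-to-total ratio of every member was lower in wounded than in unwounded cells. The ratio of Krt78 changed by a factor of 0.232 (log2 -2.11, SE 0.38), that of Krt6b by 0.405 (-1.30, SE 0.23) and that of Krt16 by 0.539 (-0.89, SE 0.16). The ratios of Krt6a (0.852, log2 -0.23, SE 0.15) and Krt17 (0.848, log2 -0.24, SE 0.17) moved less. The first 3 were past the threshold, 3 of 5 members in a contrast where 0.103% of all tested genes were called lower and 0.0221% higher. The rule named this contrast too, so the count is a description. Leaving out wounded total replicate 1 gave -1.84, -1.46, -1.01, -0.30 and -0.39 in the same order of genes. Krt17 then also passed, and 1.88% of all genes were called lower.

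Put as levels, the unwounded cortical means of Krt6b and Krt16 lay between the unwounded total and the wounded means. Wounding moved the total fraction further than the cortical one, from a lower start to a like end. The 2 fractions of wounded cells ended at 34.1 ± 6.71 and 33.4 ± 2.73 FPKM for Krt6b and at 370.4 ± 58.6 and 358 ± 20.8 FPKM for Krt16. The total fraction was depleted of captured RNA and is not a whole-cell sample, so a ratio between fractions is not a share of the cell's mRNA.

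The members also shifted against each other. Krt6b amounted to 0.826%, 0.776% and 0.754% of Krt6a by FPKM in unwounded total and 1.58%, 1.15% and 1.66% in unwounded cortical libraries. It amounted to 2.62%, 3.22% and 3.23% in wounded total and 2.43%, 2.71% and 2.89% in wounded cortical libraries. By these FPKM Krt6b thus remained a minor part of the Krt6 pool in all 12 libraries, and the wounded libraries were all above the unwounded ones. The uncertain split of shared reads between Krt6a and Krt6b applies to these percentages. Krt16 relative to Krt17 went from 4.67% ± 0.354 (SD, n = 3) and 7.17% ± 0.379 in unwounded total and cortical libraries to 10.4% ± 0.456 and 10.1% ± 0.5001 in wounded ones. With Krt6a and Krt6b counts summed, the wounding change in the total fraction was 0.88 on the log2 scale, close to the 0.85 of Krt6a alone. Wounded total replicate 1 had the lowest Krt6b share of its group.

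The summed FPKM of all keratins was 7646 ± 365 (SD, n = 3) in unwounded total, 10528 ± 89.0 in unwounded cortical, 13732 ± 1863 in wounded total and 14689 ± 81.9 in wounded cortical libraries. Keratins took 1.39% ± 0.119 of all counts in unwounded total, 2.16% ± 0.0176 in unwounded cortical, 2.28% ± 0.0639 in wounded total and 2.93% ± 0.0464 in wounded cortical libraries. The members' share of the summed keratin FPKM did not grow with wounding. It was 39.2% ± 1.65, 35.8% ± 0.393, 37.1% ± 1.41 and 35.2% ± 0.454 in the same order of groups, and Krt5, Krt14 and Krt15 together held 58.1% ± 1.77, 62.3% ± 0.288, 61.2% ± 1.57 and 63.3% ± 0.418. Krt17, which makes up most of the members' FPKM, went from 91.0% ± 7.48 of the level of Krt14 in unwounded total to 68.0% ± 1.45 in wounded total libraries, and from 73.1% ± 0.852 to 60.9% ± 1.51 in the cortical fraction. Krt16 went the other way against Krt14, from 4.24% ± 0.392 to 7.09% ± 0.455 in the total and from 5.24% ± 0.218 to 6.17% ± 0.360 in the cortical fraction.

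**Figure D3:**
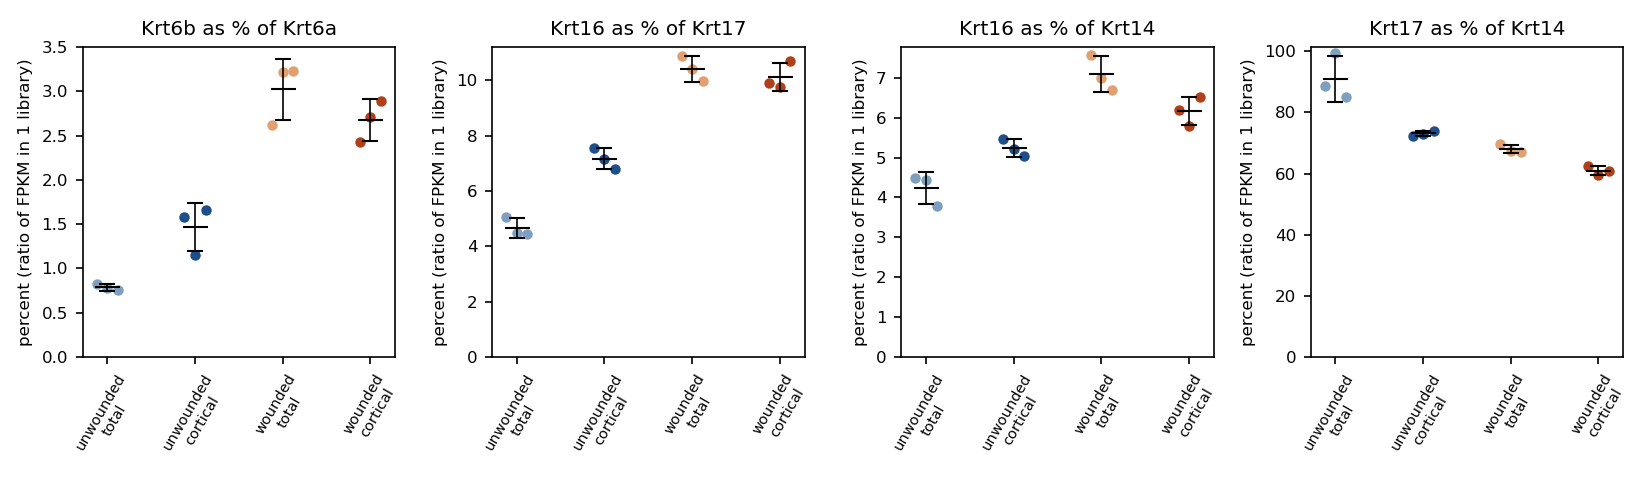
Ratios of FPKM within a library, in percent (y axes from 0), by group (x axes). Points are libraries, and black bars give the mean and SD of 3 libraries. Krt6b gains on Krt6a and Krt16 on Krt17 and Krt14 after wounding, whereas Krt17 falls from 91.0% to 68.0% of Krt14 in the total fraction as group means.

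**Figure D4:**
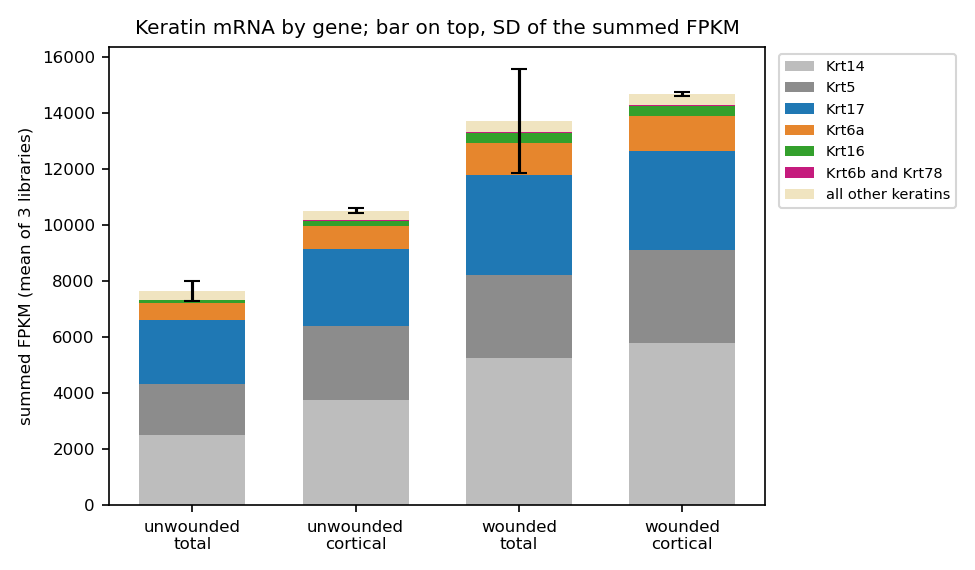
Summed keratin FPKM (y axis, mean of 3 libraries) by group (x axis), stacked by gene, with the SD of the sum as a bar. The stack grows from 7646 in unwounded total to 14689 FPKM in wounded cortical libraries, and Krt14, Krt5, Krt17 and Krt6a fill nearly all of it in each group.

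Among the other keratins, 18 were tested. Krt14 and Krt5, the basal pair, rose in the total fraction on wounding (log2 1.04, adjusted p = 7.85e-05, and 0.67, adjusted p = 3.50e-04, edgeR) and were higher in the cortical fraction of unwounded cells (0.56, adjusted p = 0.00788, and 0.52, adjusted p = 0.00251). In wounded cortical libraries Krt14 rose by 0.65 (adjusted p = 0.0130), a call lost without any 1 of the 6 cortical libraries (highest adjusted p 0.0687), and Krt5 measured 0.34 (adjusted p = 0.0784). Krt5 was called there once wounded total replicate 1 was left out (0.34, adjusted p = 0.00265), and also between wounded fractions (0.26, adjusted p = 0.0140, against 0.19 and 0.210 with it). Their ratios between fractions changed by -0.39 (Krt14, adjusted p = 0.534) and -0.33 (Krt5, adjusted p = 0.511) on wounding, the direction of the members but not called. With wounded total replicate 1 left out, the Krt14 value was -0.56 (adjusted p = 0.00325).

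Krt10 and Krt1, the pair of differentiating cells, were not called in any contrast by edgeR with all libraries. Krt10 measured 22.7 ± 3.05 CPM (SD, n = 3) in unwounded total and 31.5 ± 1.06 in wounded total libraries (log2 0.47, adjusted p = 0.0615), and Krt1 stayed at group means of 0.596 to 1.40 CPM. With wounded total replicate 1 left out, Krt10 was called higher on wounding in the total fraction (0.48, adjusted p = 0.0422) and lower in the wounded cortical fraction (-0.47, adjusted p = 0.0483). DESeq2 called 2 of 3 tested suprabasal keratins on wounding in the total fraction and 1 between wounded fractions, against 1 and 0 in edgeR. Krt32, a hair keratin, was lower in the cortical fraction of unwounded (-1.03, adjusted p = 0.00205) and wounded cells (-0.81, adjusted p = 0.00838, and 0.0510 under library size scaling). Krt7, a simple epithelial keratin, fell in the unwounded cortical fraction (-1.49, adjusted p = 0.0398) and Krt80 rose in wounded total libraries (0.59, adjusted p = 0.0417), and each of these calls was lost without several single libraries, that of Krt80 also without wounded total replicate 1 (0.42, adjusted p = 0.104). On wounding in the total fraction Krt7 measured -1.36 (adjusted p = 0.0530), and it was called without that replicate (-0.89, adjusted p = 0.0256). In all, 2 other keratins were called higher and 2 lower between unwounded fractions, 0 and 1 between wounded fractions, 3 and 0 on wounding in the total and 1 and 0 in the cortical fraction. Under library size scaling these were 3 and 1, 3 and 0, 2 and 2, and 1 and 0. Without wounded total replicate 1 they were 3 and 2, 1 and 3, 5 and 2, and 2 and 0, of 21 tested. Over all tested genes, with all libraries, 6.62% and 7.59%, 7.62% and 8.03%, 8.39% and 7.2%, and 1.6% and 0.884% were called. Without that replicate 1415 and 1736, 1697 and 1778, 1887 and 1615, and 770 and 506 of all 14073 genes were called. Shares of all genes under library size scaling and DESeq2 are not given here. With all libraries, no other keratin was called for the change of ratio in edgeR or DESeq2, although 2, Krt14 and Krt5, had an unadjusted p under 0.05 in edgeR (0.0447 and 0.0330). Without wounded total replicate 1, edgeR called Krt14 (-0.56, adjusted p = 0.00325).

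Of the 17 genes whose proteins bind, anchor or modify keratin filaments, 7 were higher and 3 lower in the unwounded cortical fraction, 7 and 3 in the wounded one. Of all tested genes 6.62% were called higher and 7.59% lower between unwounded fractions, and 7.62% and 8.03% between wounded ones. Plec, the linker plectin, was higher in the cortical fraction in both states (log2 1.37, adjusted p = 5.30e-07, and 1.36, adjusted p = 1.81e-06), from 40.3 ± 4.45 to 104 ± 5.61 CPM in unwounded cells. Eppk1, the plectin relative epiplakin, was also higher (1.14, adjusted p = 0.00719, and 1.67, adjusted p = 9.82e-04). Sfn, the adaptor 14-3-3 sigma that binds Krt17, was lower in both (-0.67, adjusted p = 3.29e-04, and -0.55, adjusted p = 0.00149), as was Stub1, a ubiquitin ligase for misfolded proteins (-0.71, adjusted p = 9.84e-04, and -0.53, adjusted p = 0.00613, the latter not called under library size scaling, adjusted p = 0.139). Hspb1, a small heat shock protein, was also lower in both states (-0.45, adjusted p = 0.0150, and -0.74, adjusted p = 8.39e-04). Its unwounded call was lost without unwounded cortical replicate 1 or 3. Evpl, envoplakin of the cornified envelope, was higher in the wounded cortical fraction (1.05, adjusted p = 6.58e-05). In unwounded cells Evpl averaged 107 ± 14.9 CPM in the total and 176 ± 6.13 in the cortical fraction. Dst, which anchors keratin to hemidesmosomes, was higher in the unwounded cortical fraction (0.96, adjusted p = 4.29e-05). In wounded cells Dst averaged 1383 ± 101 CPM in the total and 1954 ± 48.4 in the cortical fraction.

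On wounding, 6 of these partners rose and 3 fell in the total fraction and 3 rose in the cortical one. Of all tested genes 8.39% were called higher and 7.2% lower in the total fraction, and 1.6% and 0.884% in the cortical one. Dst rose in both (1.18, adjusted p = 4.57e-06, and 0.72, adjusted p = 0.00214), as did Dsp, desmoplakin itself (0.76, adjusted p = 1.95e-04, and 0.63, adjusted p = 0.00372), whose amino-terminal part was also expressed as the fusion. Hspb1 rose in the total fraction (0.64, adjusted p = 0.00157) and Evpl in the cortical one (0.72, adjusted p = 0.00273). The 3 that fell in the total fraction were Eppk1 (-1.06, adjusted p = 0.0143), Hnrnpk (-0.33, adjusted p = 0.0450) and Sfn (-0.31, adjusted p = 0.0356). With 1 library left out, these falls were still called in 10, 1 and 2 of 12 fits. None of the 17 was called for the change of ratio on wounding in edgeR or DESeq2, and 2 had an unadjusted p under 0.05 in edgeR. Without wounded total replicate 1 the counts were 8 higher and 4 lower between unwounded fractions, 9 and 3 between wounded fractions, 7 and 4 and then 5 and 0 on wounding, and 0 and 1 for the ratio. Calls rose over all genes too. Of all 14073 genes tested without it, the counts in the same order were 1415 and 1736, 1697 and 1778, 1887 and 1615, 770 and 506, and 149 and 264.

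Of 22 regulators linked to stress keratin genes, 6 were higher in the unwounded cortical fraction and 0 lower, 3 higher in the wounded one, and 3 rose and 3 fell in the total fraction on wounding. Of all tested genes 6.62% were called higher and 7.59% lower between unwounded fractions, and 7.62% and 8.03% between wounded ones. On wounding the shares were 8.39% and 7.2% in the total and 1.6% and 0.884% in the cortical fraction. Klf5, an epithelial transcription factor (1.00, adjusted p = 0.00205), Nr3c1, the glucocorticoid receptor, which represses several stress keratins (0.92, adjusted p = 1.28e-04), and Gli2, a hedgehog effector (0.74, adjusted p = 0.00763), were higher in the unwounded cortical fraction. The 3 called higher in the wounded one were Nr3c1 (0.50, adjusted p = 0.00784), Gli2 (0.58, adjusted p = 0.0287) and Myc (0.61, adjusted p = 0.0445). With 1 library left out, these 3 calls held in 11, 9 and 3 of 12 fits. Junb, a part of AP-1, rose with wounding in the total fraction (0.67, adjusted p = 7.94e-04), and Gli1, a hedgehog target, fell (-1.44, adjusted p = 0.00121). Other parts of AP-1 went both ways there, Fos down (-1.18, adjusted p = 0.0254) and Fosl2 up (0.30, adjusted p = 0.0433). Stat3 rose (0.57, adjusted p = 0.0177) and Myc fell (-0.75, adjusted p = 0.0164). With 1 library left out, these calls held in 9 (Fos), 0 (Fosl2), 10 (Stat3) and 9 (Myc) of 12 fits. In the cortical fraction 0 rose and 1 fell by edgeR, Nr3c1 (-0.60), a call lost without unwounded cortical replicate 3 or wounded cortical replicate 1 (highest adjusted p 0.0607). In that contrast 8 regulators had an unadjusted p under 0.05 in edgeR, and DESeq2 called 4. Under library size scaling 10 regulators were higher between wounded fractions, and 1 rose and 3 fell with wounding in the total fraction. The wounding counts without wounded total replicate 1 were 4 and 5 in the total and 3 and 4 in the cortical fraction. Of all 14073 genes tested without it, 1887 rose and 1615 fell in the total and 770 and 506 in the cortical fraction. For the change of ratio 0 of 22 were called in edgeR or DESeq2 with all libraries, and 2 had an unadjusted p under 0.05 in edgeR. Without wounded total replicate 1, edgeR called 0 higher and 1 lower for the ratio. Of all 14073 genes, 149 and 264 were then called.

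Of 24 genes of activated epidermis, 16 were tested, and 4 rose with wounding in the total and 2 in the cortical fraction. In these contrasts 8.39% of all tested genes were called higher and 7.2% lower in the total, and 1.6% and 0.884% in the cortical fraction. The 2 cortical calls, Sprr2d and Sprr1a, depended on single libraries: that of Sprr2d was lost without any 1 of the 6 cortical libraries (highest adjusted p 0.125) and that of Sprr1a without any 1 of 5 of them (highest adjusted p 0.107), and 1 gene was called under library size scaling. Sprr2d (log2 1.94, adjusted p = 4.38e-04) and Sprr1a (1.60, adjusted p = 3.28e-04), cornified envelope precursors that appear with Krt6 and Krt16 in hyperproliferative skin, rose in the total fraction. Tslp, an epithelial cytokine, measured 3.09 there (adjusted p = 0.0111), a call lost without unwounded total replicate 1 or 3 (highest adjusted p 0.0532). Sprr1b, of the same family, was lower in the cortical fraction of unwounded (-0.62, adjusted p = 9.61e-04) and wounded cells (-0.48, adjusted p = 0.00500, and 0.0758 under library size scaling). Of 18 genes of terminal differentiation, 15 were tested, and 2 rose and 1 fell with wounding in the total fraction (1 and 1 under library size scaling), and 0 in the cortical by edgeR, where 2 had an unadjusted p under 0.05 and DESeq2 called 1. In the total fraction Grhl3 fell (-1.23, adjusted p = 0.0133), and Ivl (0.72, adjusted p = 0.0465) and Sbsn (0.49, adjusted p = 0.0117) rose. With 1 library left out, these calls held in 10, 2 and 11 of 12 fits. Krtdap, a keratinocyte differentiation peptide, was lower in the wounded cortical fraction (-0.98, adjusted p = 0.00456). Neither list held a gene called for the change of ratio in edgeR or DESeq2, and 2 activated epidermis and 0 differentiation genes had an unadjusted p under 0.05 in edgeR. With wounded total replicate 1 left out, 1 gene of each list was called lower for the ratio, as were 264 of all 14073 tested genes (1.88%).

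Markers of immune cells moved with wounding. Their summed level was 20.9 to 24.9 CPM in unwounded total, 17.8 to 20.9 in unwounded cortical, 43.3 to 58.7 in wounded total and 32.97 to 38.6 in wounded cortical libraries. The sum was nearly all Cd68, the only 1 of 10 with enough counts to test, and Csf1r, Lyz2, Itgam, Tyrobp, Adgre1 and Cd207 had no count in any library. Their part in the keratin values was not tested. The summed keratinocyte markers moved as well, from 11036 to 12155 CPM in unwounded total to 17716 to 20267 CPM in wounded total libraries, and these include Krt5, Krt14 and Dsp.

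Genes with the pattern most like each member were sought among 8842 protein-coding genes outside the keratins that averaged 100 counts or more, by Pearson's r of log2 CPM over the 12 libraries. The libraries share groups and scaling factors, so r is a description. Tns4, a focal adhesion protein of the tensin family, was among the first 3 for Krt6a (r = 0.982), Krt6b (0.990) and Krt16 (0.988), with mean CPM of 126, 187, 353 and 363 in the order of groups used above. Urod, an enzyme of heme synthesis, was first for Krt6b (0.991) and among the first 3 for Krt16 (0.985), and Tmem63a stood beside both (0.987 and 0.987). Krt17 was closest to Tecr (0.978), Nop53 (0.973) and Gna15 (0.971), and Krt78 to Ddb1 (0.988), Calcoco1 (0.987) and Mfsd11 (0.970). Among the members the pair most alike was Krt6b with Krt16 (0.991), and the least alike was Krt17 with Krt78 (0.800).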

How the data were processed

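Poly-A selected, non-directional libraries of 12 samples were analysed, 3 per group, grouped and numbered by their titles. Per the submitters' processing notes, CASAVA, HISAT2 and mm10 were used; the counting tool and versions are not given in the sources used here. The authors deposited raw fragment counts and FPKM per gene. Each deposited FPKM equalled count over gene length and a library size of 0.825 to 1.10 times the column total. Of 54532 identifiers, 54495 were in GENCODE M21, 98.3% of them with the same coordinates. Unused per-sample columns numbered 0.

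Counts were filtered with filterByExpr, scaled by TMM (factors 0.831 to 1.10) and fitted in edgeR 4.0.16 (R 4.3.3) with a mean per group over all 12 libraries, no block, and two-sided quasi-likelihood tests adjusted by Benjamini-Hochberg over 13571 genes at 0.05. FPKM means and shares were computed from the deposited values. The fits were tested on simulated data. The members and lists were chosen with earlier results of these data known. Members were named in every contrast, other keratins up to 4 per direction (with Krt5, Krt14, Krt1 and Krt10 always), list genes up to 3 per direction if called, and the 3 genes most correlated with each member. List genes that the rule names but whose call was lost without a single library are not all described. Alternatives were DESeq2 1.42.0, scaling by RLE, by upper quartile or by library size, limma 3.58.1 (limma-trend on log2 FPKM plus 1 or 0.1, and voom with quality weights), no filter, only the groups compared, the replicate block, a length trend removed (loess span 0.5), summed Krt6 counts, counts in place of FPKM for shares, and each library left out. Depth limits Krt78 most. Figures used python 3.11.15 and matplotlib 3.10.9.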

Additional observations from a re-analysis of the deposited data

Results flagged for a closer look

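The change of the cortical-to-total ratio on wounding is listed here for 3 members that lay past the threshold in the model of all genes. In that contrast 0.103% of all tested genes were called lower and 0.0221% higher. The log2 change was -2.11 for Krt78, -1.30 for Krt6b and -0.89 for Krt16. The choice of the members used this contrast, so passing the threshold adds no support and the values are a description. For Krt78 the highest wounded total value came from replicate 1, and without it the change was -1.84.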

How the results depend on the processing

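The direction of every wounding change and every change of ratio of the members held under each alternative run. Between wounded fractions, where the reported values lay near 0, Krt17 was -0.019 under RLE, -0.021 under upper quartile scaling, -0.019 under DESeq2 and -0.082 under voom. Library size scaling gave 0.41 (Krt6a), 0.24 (Krt6b), 0.21 (Krt16) and 0.25 (Krt17) there, length trend removal 0.084 (Krt6b) and 0.13 (Krt16), and with the block 0.086 and 0.13. Krt17 was called between unwounded fractions under library size scaling (0.44), voom (0.26), only the groups compared (0.25) and length trend removal (0.50, and 0.50 with the block). Log2(FPKM + 1) gave Krt78 1.93 (total wounding), 0.76 (cortical wounding) and -1.17 (ratio), a pseudocount that understates low genes. Krt6a and Krt6b summed gave 0.18 between wounded fractions, 0.88 and 0.64 for wounding and -0.24 for the ratio in place of Krt6b.

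Other keratins called between unwounded fractions were 4, or 5 with DESeq2 and 2 with FPKM + 0.1. Between wounded fractions they were 1, or 2 with DESeq2, the replicate block or length trend removal, 3 with library size scaling or length trend removal and the block, and 4 with voom. For wounding in the total fraction they were 3, or 4 with RLE or upper quartile scaling. Library size scaling gave 2 higher and 2 lower. The count was 5 with length trend removal and the block, and 6 with FPKM + 1, no filter or length trend removal. DESeq2 gave 8 and voom 9. For cortical wounding other keratins called were 1, or 0 with FPKM + 1 or + 0.1, 2 with DESeq2 or voom and 3 with only the groups compared. For the ratio they were 0, or 1 with voom. Alternatives that moved a count only slightly are not all listed. By counts in place of FPKM the members' share was 36.5%, 33.5%, 35.0% and 33.4%.

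Leaving out 1 library at a time gave Krt6a 0.35 to 0.53 and Krt17 0.24 to 0.28 between unwounded fractions, and -0.16 to 0.092 (Krt6b), -0.15 to 0.066 (Krt16) and -0.14 to 0.13 (Krt17) between wounded ones. The ratio change of Krt6a ran from -0.34 to -0.16. Other keratins called ran from 1 to 4 between wounded fractions, 2 to 7 and 0 to 2 for total and cortical wounding, and 0 to 1 for the ratio. Without wounded total replicate 1 the calls over all genes were 3151, 3475, 3502, 1276 and 413 in place of 1928, 2124, 2116, 337 and 17.

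Same-numbered libraries of different groups showed correlations of deviations of -0.0476 to 0.137, and 4 of 12 libraries correlated best with their own number, so the numbers were not taken as pairs. With the replicate block, Krt6b between wounded fractions was 0.0011, and no call of a member changed. The causes of these shifts were not tested. Depth limited Krt78, with 24 to 48 counts in unwounded total libraries.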
